A study of Mus musculus with 16 samples.

Results

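The 7 genes described here are characteristic of podocytes, the epithelial cells that wrap the capillaries of the kidney glomerulus. They were taken by symbol from a table of raw read counts of 52338 mouse genes, and are Nphs1, Synpo, Podxl, Wt1, Plce1, Thsd7a and Ptpro. They were named as genes known from podocytes, with earlier results of these data known. All 7 passed the filter on low counts that left 17731 genes for testing.

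Whole kidneys of mice labelled C57BL6 were sequenced on day 15 after treatment with FAN or vehicle. FAN is not spelled out in the labels, and the names of all 16 columns in the table, vehicle included, carry the word folic. All mice had a high-fat diet, given either ad libitum or in a time-restricted way. The 4 groups were therefore vehicle with ad libitum feeding, vehicle with time-restricted feeding, FAN with ad libitum feeding and FAN with time-restricted feeding, with 4 libraries each. Sex, age, the dose of FAN and the hours of feeding are not given in the sources used here. Nothing in them says outright that each library came from its own mouse, so p-values measure the spread between these samples, which may be partly technical. Libraries are named by the number in their column name. For FAN these are ad libitum 6, 7, 10 and 12 and time-restricted 6, 10, 11 and 12. For vehicle they are 1 to 4 under each regimen.

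A podocyte sends out branching processes whose ends, the foot processes, interlock around the capillary. The gap between neighbouring foot processes is bridged by the slit diaphragm, a cell junction that lets water and small solutes through and holds back protein. The slit diaphragm is tied to an actin skeleton, the apical membrane carries a charged coat, and a small set of transcription factors keeps the cell differentiated. Podocytes divide little in the adult, and loss or flattening of foot processes is the common lesion of proteinuric kidney disease.

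Nphs1 encodes nephrin, the adhesion protein that spans the slit. Synpo encodes synaptopodin, an actin-associated protein of foot processes that is also made in neurons. Podxl encodes podocalyxin, the sialylated coat protein of the apical surface, which vascular endothelium makes too. Ptpro encodes a receptor-type tyrosine phosphatase of the apical membrane, known in the glomerulus as GLEPP1. Wt1 encodes a zinc finger transcription factor needed to form and keep podocytes. Plce1 encodes phospholipase C epsilon, and Thsd7a a membrane protein of foot processes that is a target of autoantibodies in membranous nephropathy.

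All 7 genes are protein-coding, and positions are those of GENCODE M21 on GRCm38. Nphs1 (ENSMUSG00000006649) lies on the plus strand of chromosome 7 from 30458315 to 30487223. Synpo (ENSMUSG00000043079) lies on the minus strand of chromosome 18 from 60593973 to 60660142. Wt1 (ENSMUSG00000016458) lies on the plus strand of chromosome 2 from 105126529 to 105173616. Plce1 (ENSMUSG00000024998) lies on the plus strand of chromosome 19 from 38481109 to 38785030. The other 3 are on chromosome 6 but far apart. Thsd7a (ENSMUSG00000032625) is on the minus strand from 12311610 to 12749410, Podxl (ENSMUSG00000025608) on the minus strand from 31519488 to 31563981, and Ptpro (ENSMUSG00000030223) on the plus strand from 137252319 to 137463233. The exons of Nphs1 overlap 2 genes of the opposite strand, Nphs1os with 2 counts and Rps12-ps4 with 256 counts over all 16 libraries, and whether reads were counted by strand is not given in the sources used here.

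Because 6 of the 7 genes changed together, the stretch before their start sites was searched for motifs of 3 podocyte transcription factors. RefSeq promoters (GRCm38.p6) were matched for 4 of the 7 genes, Nphs1, Plce1, Thsd7a and Ptpro. The search covered the 250 bases before each RefSeq start on both strands. For Nphs1 and Plce1 the far end of this window already lay inside an annotated exon, so sequence upstream of that exon was not searched. The letters were GCGTGGGNG for the WT1 and EGR factors, TAATTA for LMX1B and CAGCTG for the E-box bound by TCF21. Among 32851 RefSeq promoters, 1.65% held the WT1 and EGR letters, 4.84% the LMX1B letters and 13.0% the E-box. Thsd7a alone of the 4 held a match, an E-box 45 to 40 bases before the RefSeq start at chr6:12749281-12749310 on the minus strand, inside an annotated exon. It is shown with its neighbouring bases, and the E-box is in capitals.

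Thsd7a E-box: ctcccttccctaCAGCTGgcggcgggggct

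The window before Ptpro, at chr6:137252049-137252298 on the plus strand, is shown as the window of a gene that rose in FAN kidneys yet holds none of the 3 motifs. It lies outside annotated exons, and its GC content was 53.6% against a median of 52.4% over all promoters.

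Ptpro: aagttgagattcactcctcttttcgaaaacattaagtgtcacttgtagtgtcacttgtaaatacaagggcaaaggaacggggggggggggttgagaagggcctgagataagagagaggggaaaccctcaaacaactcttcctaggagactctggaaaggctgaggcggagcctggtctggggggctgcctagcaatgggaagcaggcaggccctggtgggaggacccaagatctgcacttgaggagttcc

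A missing match says only that these letters are not in the window.

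Total counts ran from 12450812 to 33976660 per library, and levels are CPM, counts set against the library total, after TMM scaling. Reading a count of 0 as at most 3 counts sets a floor between 0.0883 and 0.241 CPM (raw totals, counting error only), and every member was above it in every library. Libraries also differed in other measures that ran with the groups. Mitochondrial transcripts made up 6.94 to 14.8% of counts in libraries of the FAN ad libitum group, against 21.4 to 26.7% after FAN with time-restricted feeding and 17.2 to 22.8% after vehicle. Long transcripts were over-represented in FAN ad libitum libraries, by a log2 difference between long and short transcripts of 0.10 to 0.65 against -0.32 to 0.02 in the other 3 groups. A number after the letter S in the column names, called sheet position here, was low for FAN ad libitum 6 and 7, FAN time-restricted 6 and vehicle 1 and 2 of both regimens. It was higher, in 1 run of numbers for the other vehicle libraries and in another for the other FAN libraries, so among the later positions FAN and position cannot be told apart.

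The kidneys held RNA of all 7 genes in every group. Per kilobase of exon, which allows genes to be compared, Podxl was the most abundant member in vehicle ad libitum kidneys, with 18.9 ± 6.77 CPM per kilobase (SD, n = 4). Synpo followed with 1.75 ± 0.601, Ptpro with 1.11 ± 0.468, Nphs1 with 0.788 ± 0.356, Wt1 with 0.578 ± 0.363, Plce1 with 0.314 ± 0.0386 and Thsd7a with 0.272 ± 0.127 CPM per kilobase. Podxl stood clear of all others, and each of the remaining neighbours in this order overlapped. In FAN ad libitum kidneys the order was the same, with Podxl at 23.7 ± 8.80 and Synpo at 6.40 ± 1.14 CPM per kilobase. There Synpo no longer overlapped Ptpro (2.56 ± 0.346), while Ptpro overlapped Nphs1 (1.80 ± 0.756) and Nphs1 overlapped Wt1 (1.52 ± 0.247). Plce1 (0.999 ± 0.136) and Thsd7a (0.941 ± 0.0718) overlapped each other and lay below Wt1 in every library.

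**Figure D1:**
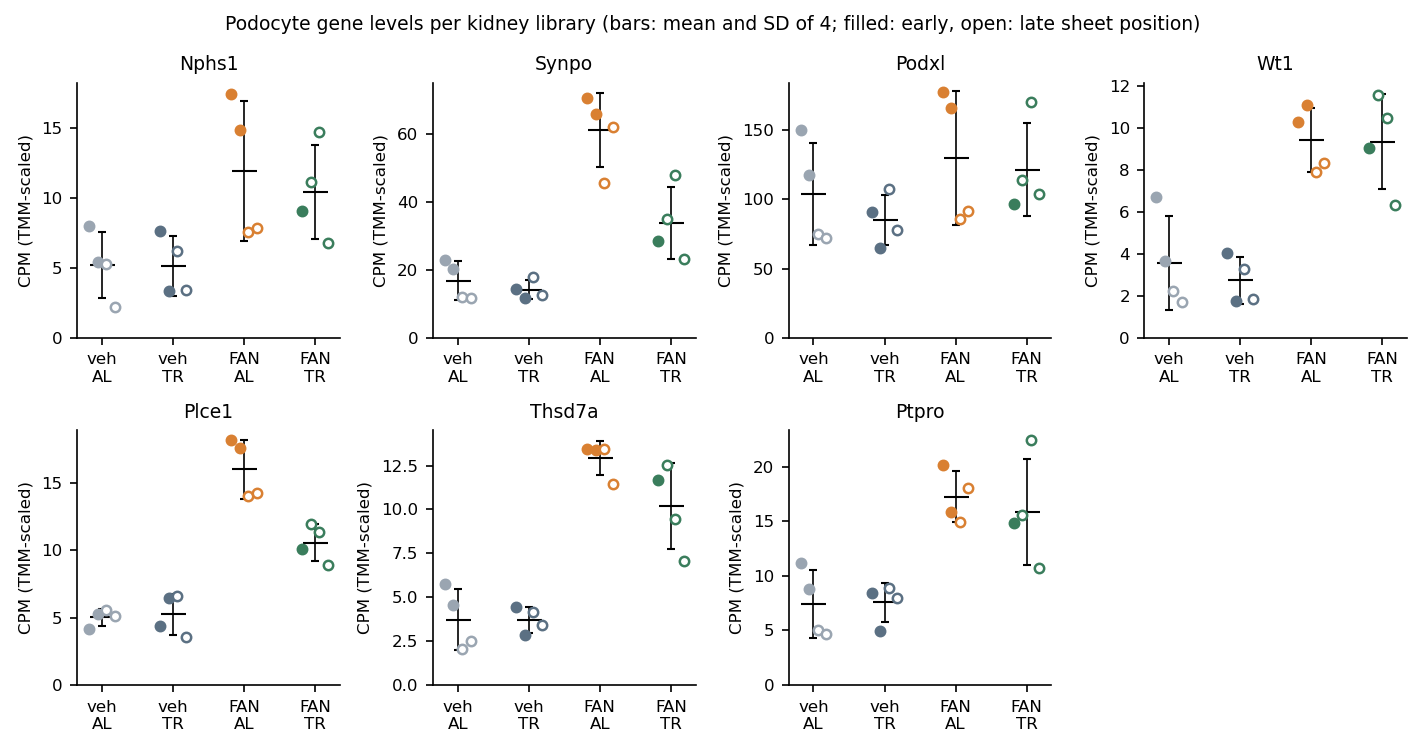
Each point is a library, with its level in CPM on a linear axis from 0, for the 7 podocyte genes in the groups vehicle (veh) and FAN under ad libitum (AL) and time-restricted (TR) feeding. Bars are the mean and SD of 4 libraries, filled points have low and open points late sheet positions. Synpo, Wt1, Plce1, Thsd7a and Ptpro lie higher in all FAN libraries than in the vehicle libraries of the same regimen, while Podxl overlaps throughout.

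Under ad libitum feeding, FAN kidneys held more RNA of 6 of the 7 podocyte genes than vehicle kidneys. Synpo, Thsd7a and Plce1 rose most, between 3.19-fold and 3.63-fold, Wt1, Ptpro and Nphs1 rose 2.26-fold to 2.58-fold, and Podxl did not pass the test. The test was edgeR's quasi-likelihood test with Benjamini-Hochberg adjustment over all 17731 genes and a threshold of 0.05, and 32.1% of all genes tested were higher by it. The median log2 change of the 7 genes was 1.37, against 0.06 over all genes. All 7 have long transcripts, in classes 4 and 5 of 5 equal length classes of the genes tested, whose medians were 0.17 and 0.29. With each library's trend over transcript length removed, the same 6 genes still passed, with log2 changes from 1.03 (Nphs1) to 1.64 (Synpo). In bulk tissue, more RNA per podocyte, a larger share of podocyte RNA and RNA of these genes from other cells cannot be told apart.

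At the slit diaphragm, Nphs1 measured 17.4, 14.9, 7.57 and 7.81 CPM in FAN ad libitum libraries 6, 7, 10 and 12, and 7.96, 5.43, 5.27 and 2.21 CPM in vehicle libraries 1 to 4. FAN libraries 6 and 7 were near 2 times as high as 10 and 12, and these last 2 lay just below the highest vehicle library, so the groups overlapped. The log2 change of Nphs1 was 1.18 ± 0.37 (SE, edgeR adjusted p = 0.0108).

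Synpo, of the foot process skeleton, measured 70.5, 65.9, 45.5 and 62.0 CPM with FAN and 22.9, 20.3, 11.99 and 11.7 CPM with vehicle. The lowest FAN library was about 2 times the highest vehicle library. This was the largest change among the 7, with a log2 change of 1.86 ± 0.24 (edgeR adjusted p = 3.52e-06).

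Of the 2 genes of the apical surface, Ptpro passed the test and Podxl did not. Podxl measured 177, 166, 85.9 and 91.3 CPM with FAN and 150, 118, 75.3 and 72.3 CPM with vehicle. Both groups split into a high and a low pair, the high pair being the libraries of low sheet position, and the pooled groups overlapped. Among the low positions both FAN libraries were above both vehicle libraries. The same held among the later positions, where FAN and position cannot be told apart. The log2 change of Podxl was 0.32 ± 0.28 (edgeR adjusted p = 0.326), with a 95% interval from -0.22 to 0.87. Ptpro measured 20.1, 15.8, 15.0 and 18.03 CPM with FAN and 11.2, 8.80, 5.03 and 4.67 CPM with vehicle. Every FAN library was above every vehicle library, and the log2 change was 1.2 ± 0.27 (edgeR adjusted p = 0.000782). Whether Ptpro and Podxl differ in their response was not tested.

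Wt1, the transcription factor, measured 10.3, 11.1, 7.92 and 8.36 CPM with FAN and 6.72, 3.65, 2.25 and 1.70 CPM with vehicle. The groups did not overlap, although vehicle library 1 came near the lowest FAN library. Its log2 change was 1.37 ± 0.34 (edgeR adjusted p = 0.00222). Among the libraries of low sheet position alone, 2 against 2, it was 1.0 with an adjusted p of 0.0986.

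Plce1, the phospholipase, measured 18.1, 17.6, 14.0 and 14.2 CPM with FAN and 4.13, 5.26, 5.56 and 5.11 CPM with vehicle. Its vehicle libraries were the most even of the 7 genes, with an SD of 12.3% of the mean, and vehicle library 1 was the lowest of them. No library of either group came near the other group. The log2 change was 1.68 ± 0.19, with the smallest standard error of the 7 (edgeR adjusted p = 5.16e-07).

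Thsd7a measured 13.4, 13.4, 13.4 and 11.4 CPM with FAN and 5.78, 4.56, 2.06 and 2.52 CPM with vehicle. The lowest FAN library was almost 2 times the highest vehicle library. Its log2 change was 1.77 ± 0.27 (edgeR adjusted p = 1.48e-05). Of the 7 genes, 5 had groups that did not overlap, against 29.0% of all genes tested that were higher without overlap.

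**Figure D2:**
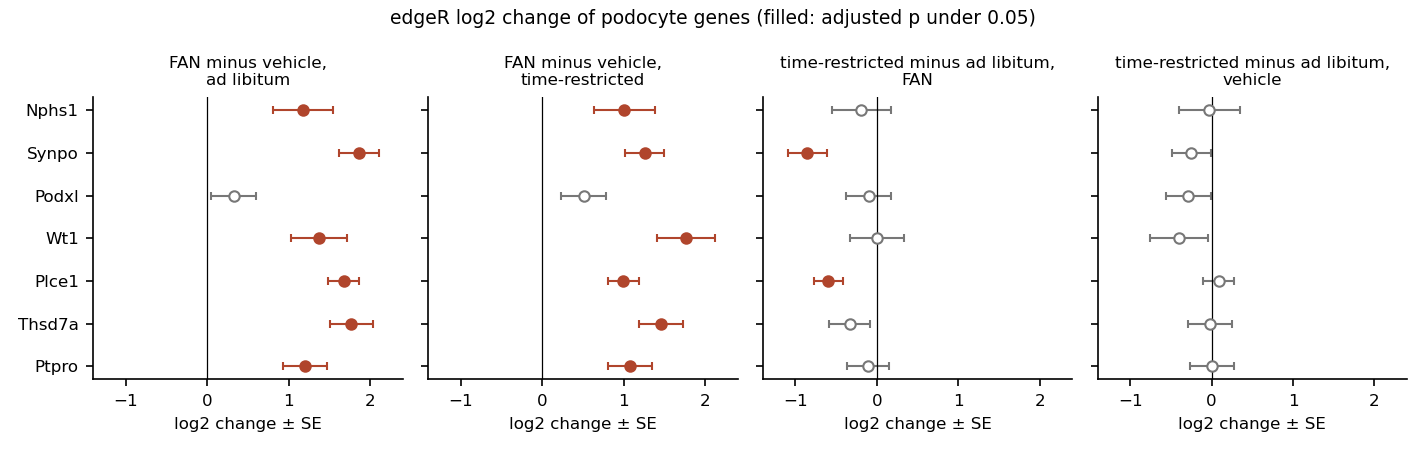
Points are edgeR log2 changes and bars their standard errors, for the 7 podocyte genes in 4 comparisons, with 4 libraries a group. Filled points passed an adjusted p of 0.05. In both comparisons of FAN with vehicle 6 of the 7 genes passed to the right of 0, in FAN kidneys Synpo and Plce1 passed to the left of 0 with time-restricted feeding, and no point passed for feeding in vehicle kidneys.

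Time-restricted feeding gave the same 6 genes against vehicle. With FAN they were 1.99-fold (Plce1) to 3.41-fold (Wt1) higher, and Podxl was 1.43-fold higher without passing the test. All genes higher by the test made up 24.5% of those tested here, and 22.4% were higher without overlap, against 5 of the 7. The median log2 change of the 7 genes was 1.08, against 0.05 over all genes and 0.08 and 0.15 over length classes 4 and 5.

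Wt1 measured 9.07, 11.6, 10.5 and 6.32 CPM in FAN time-restricted libraries 6, 10, 11 and 12, and 4.06, 1.74, 3.28 and 1.87 CPM in vehicle time-restricted libraries 1 to 4. All FAN libraries were above all vehicle libraries. Its log2 change of 1.77 ± 0.36 was the largest of the 7 under this regimen (edgeR adjusted p = 0.000662).

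Thsd7a measured 11.7, 12.6, 9.47 and 7.06 CPM with FAN and 4.45, 2.84, 4.18 and 3.42 CPM with vehicle. Ptpro measured 14.8, 15.6, 22.4 and 10.7 CPM with FAN and 8.43, 4.96, 8.91 and 7.98 CPM with vehicle. Neither pair of groups overlapped, and FAN library 12, the shallowest of the series, was the lowest FAN library for both. The log2 changes were 1.46 ± 0.27 for Thsd7a (edgeR adjusted p = 0.000283) and 1.08 ± 0.27 for Ptpro (edgeR adjusted p = 0.00349).

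Synpo measured 28.6, 35.04, 47.9 and 23.2 CPM with FAN and 14.3, 11.6, 17.9 and 12.7 CPM with vehicle. Plce1 measured 10.1, 11.9, 11.3 and 8.92 CPM with FAN and 4.36, 6.49, 6.61 and 3.58 CPM with vehicle. Both kept every FAN library above every vehicle library. The log2 change was 1.26 ± 0.24 for Synpo (edgeR adjusted p = 0.000465) and 0.996 ± 0.189 for Plce1 (edgeR adjusted p = 0.000373).

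Nphs1 measured 9.03, 11.1, 14.7 and 6.78 CPM with FAN and 7.66, 3.33, 6.21 and 3.42 CPM with vehicle, where FAN library 12 lay below vehicle library 1. Its log2 change was 1.01 ± 0.38 (edgeR adjusted p = 0.0371). The call rested on single libraries. The adjusted p was 0.0729 without FAN library 10, 0.154 without FAN library 11, 0.107 without vehicle library 2, 0.0978 without vehicle library 4 and 0.12 without the filter on low counts.

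Podxl measured 97.05, 114, 171 and 104 CPM with FAN and 91.1, 64.6, 107 and 78.0 CPM with vehicle. Only vehicle library 3 reached into the FAN range. The log2 change was 0.51 ± 0.28 with a 95% interval from -0.03 to 1.06 (edgeR adjusted p = 0.149).

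Among libraries of low sheet position alone, FAN time-restricted kidneys are represented by library 6 against 2 vehicle libraries, so only log2 changes are given. They were 1.08 for Synpo, 1.61 for Thsd7a, 1.08 for Ptpro, 1.58 for Wt1, 0.82 for Plce1 and 0.65 for Nphs1. Under ad libitum feeding, with 2 against 2 libraries, log2 changes ran from 0.32 (Podxl) to 1.89 (Plce1), and Wt1 and Podxl did not pass.

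Within FAN kidneys, time-restricted feeding went with less Synpo and less Plce1 RNA than ad libitum feeding, and no other member passed the test. The background was 13.9% of genes lower and 17.9% higher, and the 7 genes had a median log2 change of -0.19 against -0.02 over all genes. Over length classes 4 and 5, which hold the 7 genes, the medians were -0.12 and -0.18. Synpo fell from 61.0 ± 10.9 CPM ad libitum to 33.7 ± 10.6 CPM time-restricted (SD, n = 4 each). FAN time-restricted library 11, at 47.9 CPM, was above FAN ad libitum library 10, at 45.5 CPM, and the other libraries did not overlap. The log2 change of Synpo was -0.85 ± 0.24 (edgeR adjusted p = 0.0108).

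Plce1 fell from 15.99 ± 2.18 to 10.6 ± 1.34 CPM, with all 4 time-restricted libraries below all 4 ad libitum ones. It was the only member without overlap here, where 12.3% of all genes were lower without overlap. Its log2 change was -0.59 ± 0.18 (edgeR adjusted p = 0.0187).

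The remaining 5 members had log2 changes from -0.33 ± 0.25 (Thsd7a, edgeR adjusted p = 0.333) to -0.00 ± 0.33 (Wt1, adjusted p = 0.999). Their 95% intervals were wide, from -0.65 to 0.65 for Wt1 and from -0.90 to 0.52 for Nphs1, so changes of this size in either direction are not shown to be absent. Among low sheet positions this comparison has 1 time-restricted library, 6, against 2 ad libitum ones, so only log2 changes are given. Among later positions it has 3 against 2. Nphs1 changed sign between low and later sheet positions, at -0.87 among the low and 0.51 among the later (edgeR adjusted p = 0.427). Podxl did so too, at -0.85 among the low and 0.55 among the later (edgeR adjusted p = 0.105).

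Synpo kept its direction in both classes, at -1.28 among the low and -0.59 among the later positions (edgeR adjusted p = 0.173). Plce1 did likewise, at -0.85 among the low and -0.39 among the later (edgeR adjusted p = 0.32). Both are long transcripts, with 9533 and 15998 bases of exon, in the longest of 5 equal length classes of the genes tested, and genes of that class had a median log2 change of -0.18. With each library's trend over transcript length removed, Synpo was at -0.70 (adjusted p = 0.037) and Plce1 at -0.37, which did not pass (adjusted p = 0.167). Thsd7a, with 13737 bases the second longest, was at -0.14 by that measure. The Plce1 call was also lost when FAN ad libitum library 6 or 7 or FAN time-restricted library 6 or 12 was left out, with adjusted p from 0.0522 to 0.0615.

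In vehicle kidneys none of the 7 genes passed for feeding, and their log2 changes ran from -0.40 (Wt1) to 0.09 (Plce1). The same test called 0% of all genes, 1143 had an unadjusted p under 0.05, and DESeq2 called 57. None of the 7 had an unadjusted p under 0.05, and DESeq2 called none of them. The interaction, which asks whether the feeding difference in FAN kidneys differs from that in vehicle kidneys, passed for none of the 7, against 9.16% of all genes. By unadjusted p Plce1 alone was under 0.05, and DESeq2 called none of the 7. The interaction was -0.68 ± 0.26 for Plce1 (edgeR adjusted p = 0.12) and -0.60 ± 0.34 for Synpo (edgeR adjusted p = 0.294). A feeding effect on these 2 genes that is particular to FAN kidneys was therefore not shown.

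Setting a member against Nphs1 in the same library removes library scaling, and these ratios are given as descriptions. The log2 ratio of Podxl to Nphs1 ran from 3.34 to 3.53 in FAN ad libitum libraries and from 3.82 to 4.99 in vehicle ad libitum ones, so the coat gene stood lower against nephrin in every FAN library of that regimen. Under time-restricted feeding it ran from 3.35 to 3.92 with FAN and from 3.56 to 4.48 with vehicle, and the groups overlapped.

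The log2 ratio of Synpo to Nphs1 ran from 2.01 to 2.98 in FAN ad libitum libraries and from 1.65 to 1.76 in FAN time-restricted ones, without overlap. It ran from 1.17 to 2.36 and from 0.89 to 1.87 in the vehicle groups. Wt1 to Nphs1 ran from -0.48 to 0.06 in FAN time-restricted libraries, above all 4 vehicle time-restricted ones at -0.91 to -0.84. Within FAN ad libitum kidneys, libraries 6 and 7 had the lowest ratios to Nphs1 of every other member. The values were 2.01 and 2.14 for Synpo, 3.34 and 3.48 for Podxl, -0.76 and -0.42 for Wt1, 0.06 and 0.24 for Plce1, -0.37 and -0.15 for Thsd7a and 0.21 and 0.09 for Ptpro. Nphs1 itself was higher in these 2 libraries, at 17.4 and 14.9 CPM against 7.57 and 7.81 CPM in libraries 10 and 12. Libraries 6 and 7 have low sheet positions and the strongest over-representation of long transcripts, 0.65 and 0.64. Synpo, Plce1, Thsd7a and Ptpro have more bases of exon than Nphs1, and Podxl and Wt1 have fewer. The parts of transcript length and sheet position in these ratios were not tested.

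The 7 genes also varied together from library to library. Over the 16 libraries their log2 CPM had pairwise Pearson correlations from 0.47 (Podxl with Plce1) to 0.95 (Wt1 with Thsd7a), with a median of 0.84 over 21 pairs, which include the difference between groups. On deviations from the group means, the 15 pairs without Plce1 kept correlations from 0.59 to 0.92, with a median of 0.79, the highest being that of Synpo with Ptpro. The 6 pairs with Plce1 fell between -0.15 and 0.22. Plce1 thus shared the difference between FAN and vehicle with the other members. With the 4 groups pooled its deviations did not follow theirs, which does not hold for each group alone. In FAN ad libitum kidneys Plce1, Nphs1, Synpo, Podxl and Wt1 were all higher in libraries 6 and 7 than in 10 and 12, while Thsd7a and Ptpro were not. In FAN time-restricted kidneys library 12 was lowest for Plce1 and for every other member but Podxl. The correlations come from 16 libraries that share depth and scaling, so they are descriptions.

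The vehicle ad libitum libraries show the pattern most plainly. Libraries 1 and 2 were higher than 3 and 4 for Nphs1, Synpo, Podxl, Wt1, Thsd7a and Ptpro, while Plce1 was lowest in library 1. Libraries 1 and 2 have low and 3 and 4 later sheet positions. In vehicle time-restricted kidneys the same 2 classes did not separate, since libraries 1 and 3 were high and 2 and 4 low for Nphs1, Synpo, Podxl, Wt1, Thsd7a and Ptpro.

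**Figure D3:**
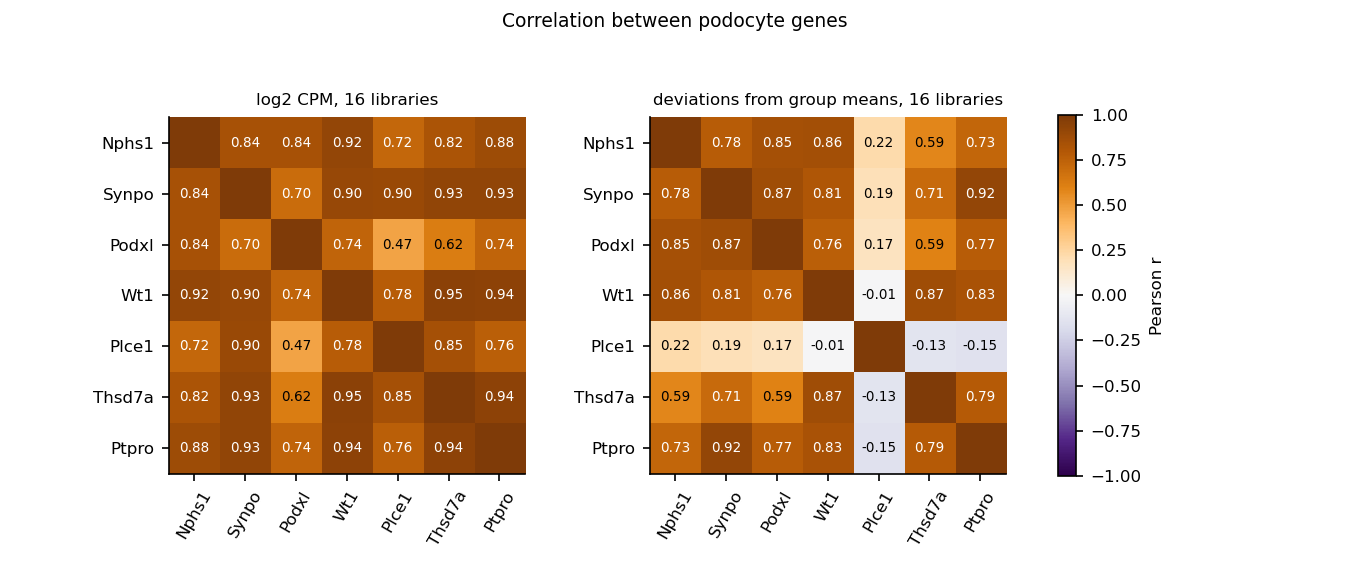
Cells give the Pearson correlation between pairs of the 7 podocyte genes over 16 libraries, on log2 CPM (left) and on deviations from the 4 group means (right), from purple at -1 to brown at 1. On the right the row and column of Plce1 stand out, with values from -0.15 to 0.22, while all other pairs lie between 0.59 and 0.92.

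Among 11243 other named genes with a mean of at least 5 CPM, those most like the mean of the 7 standardised members over the 16 libraries were Npr3, Sla, Nes, Map3k6, Sirpa, Itgax, Siglece and Arhgap25, with correlations from 0.95 to 0.96. Nes encodes nestin, an intermediate filament protein of podocytes, and Npr3 the natriuretic peptide clearance receptor. Itgax, Sirpa, Sla and Siglece are known from myeloid cells. High correlations were widespread, since the 95th percentile of all 11243 was 0.88. On deviations from group means the nearest were Itgax, Myom2, Vamp2, Sirpa, Arhgap17, Sla, H2-Q6 and Npr3, from 0.88 to 0.93, and 5 genes were over 0.9.

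The nearest gene to each member over the 16 libraries was Myom2 for Nphs1 (0.93), Itgax for Synpo (0.99), Sema3g for Podxl (0.93), H2-Q4 for Wt1 (0.96), Tmem98 for Plce1 (0.97), Sla for Thsd7a (0.99) and Mcl1 for Ptpro (0.94). Of the podocyte genes outside the 7, Nes ranked 3rd by log2 CPM and 13th by deviations, and Sema3g, a secreted semaphorin of podocytes, ranked 1122nd and 14th. The correlations of Sema3g were close by both measures, 0.83 and 0.86, while the 95th percentile of all ranked genes was 0.88 and 0.56. Over all 34 podocyte genes outside the 7 that were ranked, the correlation with the mean of the 7 was positive for 25 and negative for 9 by log2 CPM, with a median of 0.73 and a range from -0.80 (Vegfa) to 0.96 (Nes). By deviations it was positive for 27 and negative for 7, with a median of 0.31 and a range from -0.47 (Nck1) to 0.86 (Nes).

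A list of 41 other podocyte genes, grouped by role, gave the wider setting. Of these, 39 were tested, Kirrel2 with 54 counts in all fell below the filter, and Kirrel1 is not a symbol of the table, which has Kirrel. Under ad libitum feeding 24 of the 39 were higher with FAN, 7 were lower and 8 did not pass, with a median log2 change of 1.02, against 28.6% of all genes lower and the share of higher genes given above. Under time-restricted feeding 21 were higher, 4 were lower and 14 did not pass, with a median of 0.72, against 19.0% of all genes lower.

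Slit diaphragm and adaptor genes moved the most uniformly. With FAN, 6 of 7 were higher under ad libitum and 7 of 7 under time-restricted feeding, with none lower. Kirrel, which encodes the nephrin partner Neph1, had log2 changes of 2.71 ± 0.26 and 1.65 ± 0.26 (edgeR adjusted p = 7.41e-08 and 6.53e-05). The adaptor Nck2 had 1.02 and 0.88, Nck1 1.02 and 1.25, and Cd2ap, which links the slit diaphragm to actin, 0.84 and 0.82. In FAN kidneys 2 of the 7 were lower with time-restricted feeding and none higher, against 13.9% of all genes lower. Kirrel had a log2 change of -1.27 ± 0.24 (edgeR adjusted p = 0.000788) without overlap. Tjp1 had -0.49 ± 0.18 (edgeR adjusted p = 0.0443) with overlapping groups.

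Cytoskeletal genes of podocytes were mixed. Under ad libitum feeding 5 of 10 rose with FAN, among them Nes (2.71), the formin Inf2 (1.95) and the myosin Myo1e (1.24), and 2 fell, Arhgap24 (-0.95) and Rhpn1 (-0.74). Under time-restricted feeding 4 of 10 rose, led by Nes (1.93) and Nebl (1.89), and Arhgap24 fell (-0.52). In FAN kidneys 4 of the 10 were lower with time-restricted feeding and none higher, Myo1e by -1.17, Nes by -1.04, Inf2 by -0.92 and the actinin Actn4 by -0.72. Myo1e was also the 1 gene of the 39 whose interaction passed, at -1.07 ± 0.33 (edgeR adjusted p = 0.0487), a call that several alternatives did not give.

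Of 5 podocyte transcription factors, 3 rose with FAN under ad libitum feeding, Tcf21 by 2.14, Foxc2 by 1.38 and Dach1 by 0.84, Foxc1 fell by 0.52 and Lmx1b did not pass. Under time-restricted feeding Tcf21 (2.31), Foxc2 (1.22) and Dach1 (1.12) rose. None of the 5 passed for feeding in FAN kidneys.

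Among adhesion and basement membrane genes, Agrn (agrin, 1.36), Itgb1 (integrin beta 1, 1.06) and Lama5 (a laminin chain, 1.10) were among the 5 of 9 that rose with FAN under ad libitum feeding. Col4a3, a chain of the mature glomerular collagen IV, fell (-0.73). Under time-restricted feeding 3 of the 9 rose, Itgb1 (0.84), Agrn (0.62) and Lamb2 (0.51), and Col4a4, another collagen IV chain, fell (-0.58). Lama5 (0.44, edgeR adjusted p = 0.0873) and Col4a3 (-0.45, edgeR adjusted p = 0.0824) did not pass there. Of the same 9 genes, Itga3 (-1.08), Agrn (-0.79), Lama5 (-0.80) and Lamb2 (-0.56) were lower with time-restricted feeding in FAN kidneys.

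Surface and secreted podocyte genes went both ways. The receptors Robo2 (1.76 ad libitum and 1.81 time-restricted) and Pla2r1 (1.34 and 1.39) rose with FAN under both regimens, and Pla2r1, like Thsd7a, encodes an antigen of membranous nephropathy. Bmp7 (-1.51 and -1.21) and Vegfa (-0.87 and -0.53) fell under both, and both are also made by tubule cells. Some list genes that rose were far above Nphs1 (5.22 CPM) in vehicle ad libitum kidneys, such as Itgb1 (274 CPM) and Cd2ap (111 CPM). Others, such as Kirrel (4.77 CPM), were near it. Which cells the list genes that rose or fell came from was not tested. Clic5, a foot process chloride channel family protein, was the only 1 of the 39 that was higher with time-restricted feeding in FAN kidneys (0.60 ± 0.15, edgeR adjusted p = 0.00571), against 11 that were lower.

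**Figure D4:**
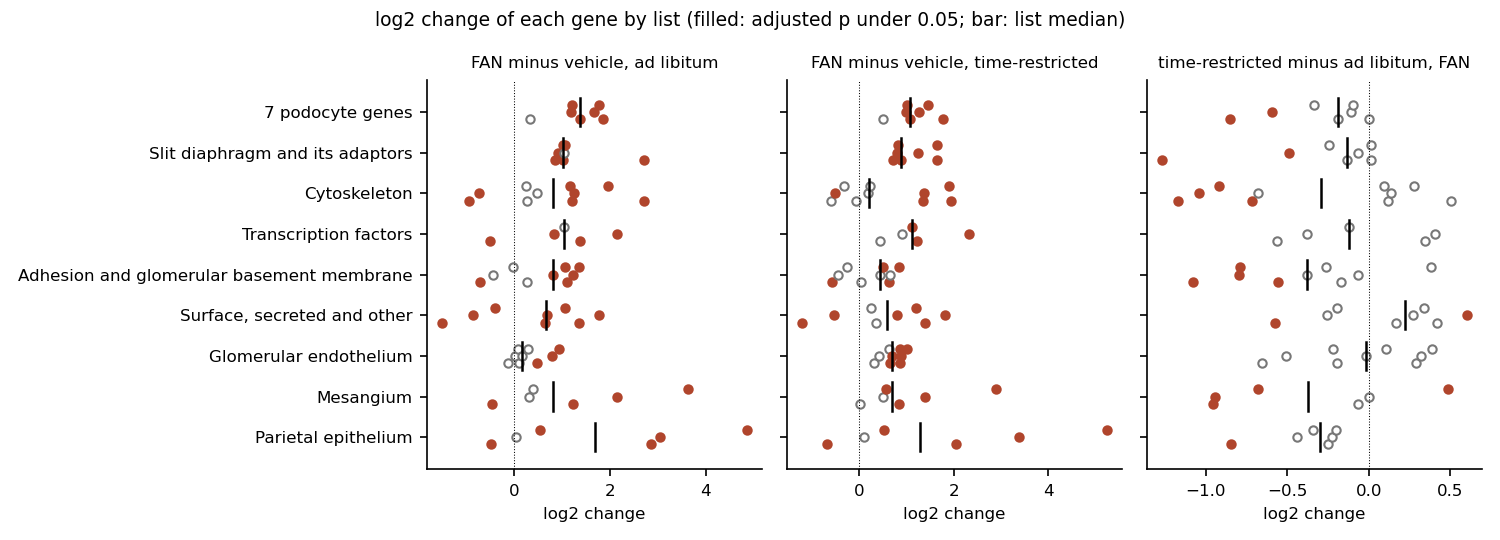
Each point is the edgeR log2 change of a gene, by list, in 3 comparisons with 4 libraries a group, filled where the adjusted p was under 0.05, and bars are list medians (horizontal axes differ in range). The 7 podocyte genes and the slit diaphragm genes lie to the right of 0 in both comparisons of FAN with vehicle, while the other podocyte roles and the other glomerular cell types hold points on both sides of 0 in at least 1 of them.

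Genes of other cell types in the same libraries are set against the shares of all genes that were higher with FAN, 32.1% ad libitum and 24.5% time-restricted. Of 9 glomerular endothelial genes, 3 were higher with FAN under ad libitum feeding (median 0.16), a share near that of all genes, and 6 under time-restricted feeding (median 0.69). Of 6 mesangial genes, 3 were higher and 1 lower ad libitum and 4 higher time-restricted. Of 6 genes of the parietal epithelium of Bowman's capsule, 4 were higher and 1 lower under each regimen. They ranged from Cd44, the highest (4.86 and 5.24), to Pax8, which fell (-0.49 and -0.68), and Pax2 did not pass (0.03 and 0.10).

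All 5 macrophage genes were higher with FAN under ad libitum feeding and 4 of 5 under time-restricted feeding. Their summed level was 975 to 1813 CPM in FAN ad libitum libraries, 521 to 1056 in FAN time-restricted ones and 76.6 to 150 in vehicle ones. Lyz2 was the largest part of it in FAN ad libitum kidneys, with a mean of 1101 of 1400 CPM. Of 5 fibroblast genes, 4 and 3 were higher, with summed levels of 333 to 574, 216 to 302.3 and 74.9 to 180 CPM.

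Proximal tubule genes went the other way, 3 of 4 being lower under each regimen. Their summed level ranged over 642 to 1784 CPM with FAN and ad libitum feeding, over 2394 to 3127 CPM with FAN and time-restricted feeding, and over 4699 to 6193 CPM with vehicle. The summed level of the 7 podocyte genes was 189 to 327 CPM, 167 to 287 CPM and 95.6 to 209 CPM in the same 3 sets. Podxl was its largest part, with means of 130 of 259 CPM in FAN ad libitum and 104 of 146 CPM in vehicle ad libitum kidneys. No gene of these 6 lists was at 0 in any library, the lowest count being 12, for a parietal gene. The part of these cell types in the podocyte gene differences was not tested.

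The scaling bears on the size of every value above. Without TMM scaling, the median log2 change of all genes was 0.76 for FAN against vehicle under ad libitum feeding and -0.67 for feeding in FAN kidneys. On that scale Podxl passed under ad libitum feeding at 1.04 (edgeR adjusted p = 0.00497). In FAN kidneys 5 of the 7 genes were lower with time-restricted feeding, in a fit where most genes tested passed in 1 direction or the other. That count is therefore not particular to the 7 genes.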

How the data were processed

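The authors deposited 1 table of unnormalised read counts for the 16 libraries, with a row for each Ensembl gene. Per the labels' protocols, total RNA of powdered frozen kidney went into a stranded mRNA library kit. The mm10 build, STAR 2.5.3a, FastQC 0.11.5 and edgeR 3.26.7 are named in the submitters' processing notes. The counter and its strand setting are not given in the sources used here. The values are whole numbers, and 71 genes have no symbol. Positions and exon lengths came from GENCODE M21 by Ensembl identifier, which matched 52081 identifiers.

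Of the 8 FAN columns, 6 carry a number that no sample title of their group has, so FAN columns were mapped to their group alone. Counts were fitted in R 4.3.3 with edgeR 4.0.16 (filterByExpr by group, minimum count 10, TMM, robust quasi-likelihood, 1 model of 4 groups, two-sided tests, Benjamini-Hochberg over all genes). The standard error of a log2 change was taken from the change and its F value. Log2 CPM for ratios and correlations used a prior count of 2, and the fit was tested on simulated data. Alternatives were other scalings, DESeq2 1.42.0, no filter, no mitochondrial transcripts, removal of the length trend, sheet position as a covariate, each library left out and the replicate block. The low or later sheet positions alone were added after seeing the column names. The members and lists were chosen with earlier results of these data known. The rule for named genes took the 7 members, up to 3 genes per list with the smallest p in a comparison, and the genes most like the members. Other genes, such as those that complete a small count, were chosen after their values were seen. Of the fixed gene lists, 2 genes are not reported here and enter no count.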

Additional observations from a re-analysis of the deposited data

Results flagged for a closer look

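Thsd7a in FAN ad libitum kidneys was flagged because 1 library stood apart from the other 3 of its group. Library 12 measured 11.45 CPM, and libraries 6, 7 and 10 all measured 13.4 CPM. The gap was large only against the very narrow spread of the other 3, and library 12 was still above every vehicle library (at most 5.78 CPM). Chance flags about 1 in 20 groups, and 28 groups of 4 libraries were examined for the 7 genes.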

How the results depend on the processing

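Under ad libitum feeding the rise with FAN of Nphs1, Synpo, Plce1, Thsd7a and Ptpro passed under all 24 alternatives, and that of Wt1 under 23. Under time-restricted feeding Synpo, Thsd7a and Ptpro passed under all 24. Depth limits Nphs1 and Wt1 most, with 35 and 23 counts in their lowest libraries. The cause of the changes below was not tested. With raw library size, 1 gene of the other podocyte list was lower with FAN ad libitum and 2 time-restricted. For feeding in FAN kidneys it gave 5 members lower, 0 list genes higher, 26 list genes lower and 11502 of all genes past the threshold. For the interaction it gave 2 members lower, 18 list genes lower and 6631 of all genes. With the length trend removed, feeding in FAN kidneys gave 1 member lower, 4 list genes higher and 0.091 for Wt1, feeding in vehicle kidneys 2 genes, and the interaction 1 list gene higher and 0 lower. With sheet position as a covariate, feeding in FAN kidneys gave 2 list genes higher and log2 changes of 0.036 for Nphs1, 0.059 for Podxl and 0.15 for Wt1, and the interaction 0 list genes lower. In the low positions alone the FAN time-restricted group has 1 library, so no counts of genes are given for its comparisons. In the later positions alone, feeding in FAN kidneys gave 0 members lower, 2 list genes higher, 2 lower, 2582 of all genes, and log2 changes of 0.51 for Nphs1, 0.55 for Podxl and 0.23 for Wt1, and the interaction gave 1 list gene higher and 905 of all genes. DESeq2 called 57 genes for feeding in vehicle kidneys, and in the interaction 1 list gene higher and 3 lower. No filter gave 6 genes for feeding in vehicle kidneys. The interaction had 2 list genes lower with relative log expression scaling and 2 without mitochondrial transcripts.

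Leaving out 1 library at a time gave 2 to 5 list genes lower with FAN time-restricted (2 without vehicle time-restricted library 1). For feeding in FAN kidneys it gave 1 to 2 members lower, 1 to 3 list genes higher and 6 to 13 lower (6 without FAN ad libitum library 6 or 7, and 7 without FAN time-restricted library 6 or 12). For feeding in vehicle kidneys it gave 0 to 4 of all genes, and for the interaction 0 to 1 members lower (Plce1, without vehicle time-restricted library 4), 0 to 1 list genes higher and 0 to 4 lower. Changes between the 2 FAN regimens ran from -0.42 to 0.050 for Nphs1, from -0.32 to 0.086 for Podxl, from -0.12 to 0.14 for Wt1 and from -0.34 to 0.033 for Ptpro, so their direction is not determined.

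With the replicate block, feeding in FAN kidneys gave 1 member lower (Synpo, -1.03, while Plce1 was at -0.58 with an adjusted p of 0.0744), 3 list genes higher, 6 lower and 3400 of all genes, and the interaction 0 list genes lower and 877 of all genes. Deviations of libraries with the same number had correlations from -0.25 to 0.18, and those with different numbers from -0.28 to 0.32. These ranges overlap, so they do not settle whether a number marks a shared litter or day, which the labels do not say. FAN and vehicle columns share no number, so no paired fit was made for FAN against vehicle.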
